A study of Vitis vinifera with 6 samples.

Results

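The stage step from flower to young berry was followed in 2 clones of grapevine (Vitis vinifera) of the same origin, the mutant, a spontaneous seedless somatic variant, and the wild-type, the seeded wine cultivar Sangiovese from which it derives. The members were the 4 mRNA-Seq libraries of stages E-L 27 and E-L 15, out of 6 libraries in all, and they were chosen by their labels: mutant E-L 27 and wild-type E-L 27 (young berries, after fertilization) against mutant E-L 15 and wild-type E-L 15 (flowers, before fertilization). The 2 libraries of E-L 38 (ripe berries) entered only where a level at that stage is given. Each library came from a single biological replicate of 1 clone, a whole bunch at E-L 27 and a whole inflorescence at E-L 15, with the RNA of 3 extractions pooled before sequencing. Both clones were sampled in the same collection on the same dates. The organ, the stage and the sampling date changed together, so that they cannot be told apart.

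Fruit set is the step in which the ovary starts to grow into a berry after pollination. In the flower, petals and stamens are specified by MADS-box factors of class B, the tapetum of the anther feeds the developing pollen and supplies its wall, and the ovules carry the future seeds. The cap of fused petals and the stamens are shed at flowering, whereas the ovary wall grows first by cell division and then by cell enlargement, which involves loosening of the cell wall and uptake of water into the vacuole. In whole organs, fewer cells of a type and less RNA per cell cannot be told apart.

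Real-time PCR primers were designed by the study for several of the genes on which the results below turn, and they are shown because they are the sequences that define the assayed transcripts. They are written 5′ to 3′, the forward primer first.
ACE (VIT_09s0002g02210), forward: agagggagccacatagggtt
ACE, reverse: tgcactgagccacagaagag
MYB35 (VIT_17s0000g05400), forward: gccgaatgcagatggacaac
MYB35, reverse: ttcctccagaaggctaggga
pectinesterase on chromosome 15 (VIT_15s0048g00510), forward: tctcaaacatggctcagcac
pectinesterase on chromosome 15, reverse: gtgttgctgatgagcttgga
MYB7 (VIT_04s0008g01800), forward: tgccgctttggatcttgact
MYB7, reverse: gcacgaggacgtttataatgga

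The libraries held between 70331451 and 92582632 uniquely mapped reads on 28059 gene models, so that 1 read was worth 0.0108 to 0.0142 RPM. RPM are uniquely mapped reads scaled to the library total and take no account of gene length. Where no read was counted, up to 3 reads (0.0324 to 0.0427 RPM) are still allowed by counting error. The labelled organs were checked against their defining genes. PISTILLATA and AP3, which mark petals and stamens, had at least 84.4 RPM in both E-L 15 libraries and at most 13.8 RPM in both E-L 27 libraries. Of the 2 ovule and seed coat genes, SEEDSTICK had at least 9.45 RPM in all 4 libraries, and TRANSPARENT TESTA16 had at least 2.43 RPM in the E-L 27 libraries and at most 0.375 RPM in the E-L 15 libraries. The identifiers of the table matched none of the RefSeq genes at hand, and genes are therefore named only where the study annotated them, which makes 64 genes. These were chosen by the study on these same libraries, mostly for differences between the clones or between stages, and their counts are not independent evidence of a direction.

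The stages were compared with edgeR's quasi-likelihood test, with terms for stage and clone, in which the 2 clones served as the 2 libraries of a stage. The error therefore holds the difference between the clones in their stage change, with 1 residual degree of freedom. edgeR moderates this error with one estimated over all genes, which weighs 3.95 degrees of freedom. The p-values and standard errors of a gene thus rest largely on the other genes, and cover the spread between these libraries only. Calls required a p, adjusted by Benjamini and Hochberg, of at most 0.05 together with a log2 fold change beyond 1 in either direction. Of 23092 genes tested, 2348 (10.2%) were called higher at E-L 27 and 2312 (10%) lower. The median log2 fold change was 1.72 among the genes called higher and -2.06 among those called lower, and -0.0013 over all genes tested. Changes of more than 5 on the log2 scale were reached by 148 genes called higher and by 296 called lower. A further 5060 genes had an adjusted p of at most 0.05 and a log2 fold change of 1 or less. The counts were lower in fits without 1 of the E-L 15 libraries. Such fits have no clone term, and their residual error comes from the 2 E-L 27 libraries alone, so that the library left out and the change of error cannot be told apart. Without the wild-type E-L 15 library 1424 genes were called higher and 1501 lower, and without the mutant E-L 15 library 1557 were called higher and 1607 lower.

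Most of these genes changed alike in the mutant and the wild-type. A gene was counted as alike when it was called and its RPM at E-L 27 and E-L 15 differed over 2 times, the same way in each clone. This held for 1952 genes that were higher at E-L 27 (8.45% of the genes tested) and for 2039 that were lower (8.83%), together 17.3% of the genes tested and 85.6% of the genes called. The call itself uses both clones, so that some likeness is built into this share. The median log2 ratio of E-L 27 to E-L 15 among the genes that were higher alike was 1.83 in the mutant, with 1.94 for the wild-type. Among those that were lower alike it was -2.29 in the mutant, with -2.19 for the wild-type. The ratios of the clones differed by more than 2 times in 715 (17.9%) of these 3991 genes.

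Over the 23080 tested genes with a ratio in both clones, the log2 ratios of the mutant and the wild-type gave a Pearson correlation of 0.88 and a Spearman correlation of 0.82. The direction was the same in 19233 of them (83.3%). Among the 12802 genes that averaged 10 RPM or more, the Pearson correlation was 0.95. These values are across genes of the same 4 libraries, which are not independent replicates, and describe the plot of the mutant against the wild-type ratios. On log2 values with a pseudocount of 0.5 RPM, the stage took 89.6% of the sum of squares around the gene means, the clone 5.87% and the clone-by-stage difference 4.50%. In both clones 2071 genes rose and 2152 fell by more than 2 times. A change of that size was found only in the mutant for 1358 genes and only in the wild-type for 1360. Changes of more than 2 times in opposite directions were found in 91 genes, with a median of 0.276 RPM, and 1 of these averaged 10 RPM or more. Of the 91, 75 fell in the mutant and rose in the wild-type, and 16 did the reverse. Between the clones themselves, taken over both stages, edgeR called 0 genes at an adjusted p of at most 0.05, with 1807 (7.83%) at an unadjusted p under 0.05, and DESeq2 gave 89 (0.385%) at an adjusted p of at most 0.05.

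**Figure D1:**
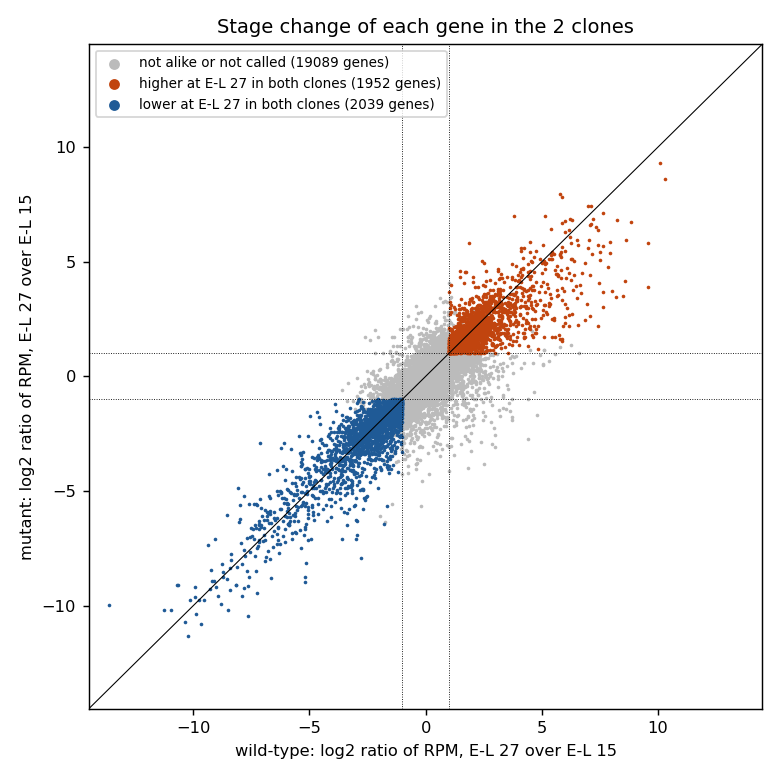
Log2 ratio of RPM at E-L 27 over E-L 15 of each tested gene in the mutant (vertical axis) and the wild-type (horizontal axis). The 1952 genes higher in both clones and the 2039 genes lower in both clones lie along the diagonal line of equal change, beyond the dotted lines at 2-fold.

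The share of genes called was larger below 10 RPM than between 10 and 1000 RPM. Of the 6325 genes with a mean of 1 to 10 RPM, 15.3% were called higher and 14.2% lower at E-L 27, against 6.76% and 6.79% of the 10423 genes with 10 to 100 RPM. Of the 42 genes with a mean of 1000 RPM or more, 4 (9.52%) were called higher and 4 (9.52%) lower. The share with an adjusted p of at most 0.05, whatever the fold, rose with level, from 27.9% of the genes under 1 RPM to 59.5% of those with 1000 RPM or more. The precision of a value falls with its number of reads, and the part of this in the classes was not tested. Of the 12802 genes that averaged 10 RPM or more, 5105 (39.9%) had ratios within 1.25 times in both clones.

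**Figure D2:**
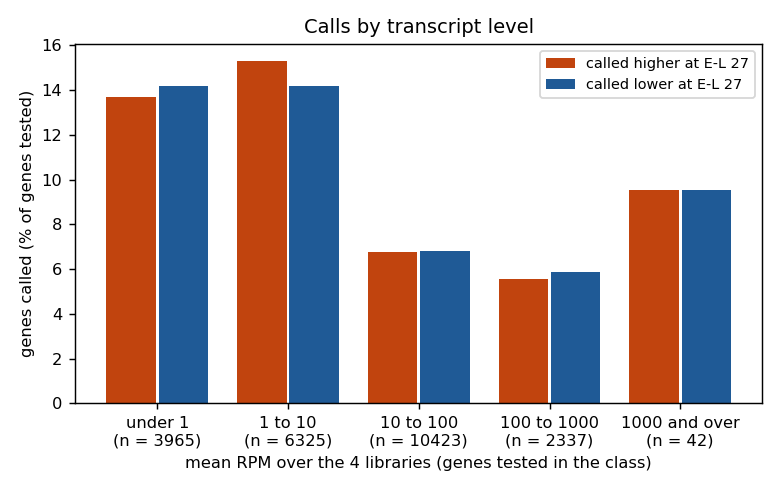
Share of the tested genes called higher (red) and lower (blue) at E-L 27, by the mean RPM of the gene over the 4 libraries. Both shares are at least 13.7% in the classes below 10 RPM and at most 6.79% in those between 10 and 1000 RPM. Both are 9.52% in the class of 1000 RPM and over, which holds 42 genes.

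In terms of reads, the exchange was balanced and of nearly the same size in the clones. The 2348 genes called higher took 10.05% of the reads of mutant E-L 27 and 9.79% of those of wild-type E-L 27, against 3.28% in mutant E-L 15 and 3.23% in wild-type E-L 15. The 2312 genes called lower took 2.69% and 2.59% of the reads of mutant and wild-type E-L 27, against 10.6% and 10.8% in mutant and wild-type E-L 15. These genes were chosen by the same values, and the sums are a description. The remaining genes held 87.3% and 87.6% of the E-L 27 reads, against 86.1% and 85.9% of the E-L 15 reads. Among the 100 genes with most reads in a library, 86 were shared by mutant and wild-type E-L 27 and 91 by mutant and wild-type E-L 15. Between the stages of a clone, 62 were shared in the mutant, with 56 for the wild-type.

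**Figure D3:**
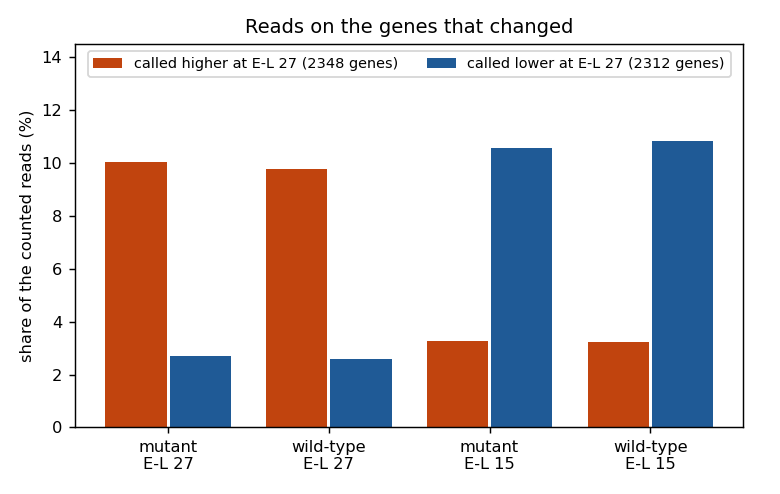
Share of the counted reads of each library on the genes called higher (red) and on those called lower (blue) at E-L 27. Bars are single libraries without an error bar, and the bars of the mutant and the wild-type are nearly level at each stage, as 10.05% and 9.79% for the genes called higher at E-L 27.

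Genes with hardly a read left at E-L 27 were more numerous than genes with hardly a read at E-L 15. In both clones 65 genes had at least 0.5 RPM at E-L 15 and 3 reads or fewer at E-L 27, and 31 genes had at least 0.5 RPM at E-L 27 and 3 reads or fewer at E-L 15. All of these were called, and they were chosen by the same values. Of these 65 genes, 63 also stayed under 0.5 RPM in both E-L 38 libraries, and of the 31 genes 24 did so. The same held for 48% of all genes lower alike, 30.4% of those higher alike and 19.6% of all genes tested. The 65 genes were low at E-L 15 too, with a median of 1.40 RPM in the mutant and 1.60 RPM in the wild-type. The 31 genes were low, with at most 4.55 RPM in the clone with the smaller value, and a pectate lyase (VIT_01s0026g01680) was the 1 gene among them that the study named. The largest change of a gene with at least 10 RPM in both libraries of the higher stage, ranked by the clone with the smaller change, belonged to genes without a name in the sources used here. VIT_14s0108g00810 had 93.5 and 116 RPM in mutant and wild-type E-L 27, against 0.148 and 0.108 RPM in mutant and wild-type E-L 15. VIT_04s0008g03540 had 2 and 4 reads in mutant and wild-type E-L 27, against 71.6 and 57.5 RPM in mutant and wild-type E-L 15. Neither gene overlapped between the stages, as held for 1946 of the 1952 genes higher alike and 2035 of the 2039 lower alike.

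Neighbouring genes were often called together. The identifiers follow the order of the genes along the chromosomes, and the next tested neighbour of a gene called higher was called higher too in 22.1% of 2255 cases, against 10.2% of all genes tested. For genes called lower this was 19.0% of 2242 cases, against 10%. The neighbour was called in the opposite direction in 8.12% and 8.03% of the cases. Runs of at least 3 such neighbours held 341 of the genes called higher and 239 of those called lower. The longest run comprised 8 neighbours higher at E-L 27 on chromosome 18, which began with VIT_18s0041g01610 and had log2 fold changes of 1.04 to 1.40. These lay close to the threshold of 1. VIT_18s0041g01610 itself was not alike in the clones, with a ratio of 1.72 in the mutant. It lost the call with DESeq2, with all 6 libraries, at equal depth and with a test against the fold itself. The call was also lost without wild-type E-L 27 and without either E-L 15 library. Over all settings its log2 fold change lay between 0.75 and 1.32. The longest run of genes lower at E-L 27 had 6 members on chromosome 2, began with VIT_02s0025g00910, and had log2 fold changes of 1.77 to 8.03 in size. Reads that fitted several copies of a gene were left out by the authors, and the part of this in neighbouring copies was not tested. By chromosome, the share called higher lay between 7.91% on chromosome 4 and 12.5% on chromosome 18, and the share called lower between 8.01% on chromosome 5 and 12.5% on chromosome 1.

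Of the 64 genes named by the study, 52 had enough reads in at least 2 of the libraries to be tested, and the other 12 had not. GA 20-oxidase 2 and alpha-expansin 2 were among these 12, with 71 and 36 reads in wild-type E-L 27. Neither had a read in the other libraries of these stages. At E-L 27, 18 of the 52 tested genes were called higher (10.2% over all genes tested), 22 lower (10%) and 12 neither. All 40 called genes were also alike in the clones, which asks only for a change over 2 times in each. The study tested each clone by itself and listed many of these genes as differentially expressed in a single clone. SPOROCYTELESS was so listed for the wild-type and AINTEGUMENTA for the mutant. The 52 tested genes had been picked by the study on these same libraries. Their median log2 fold change was 0.01, against -0.0013 over all genes tested. In 14 of the 18 and 19 of the 22, the ratios of the clones differed by more than 2 times, as the study had chosen many of them for such differences. The calls of 15 of the 40 genes held without each of the 4 libraries in turn. The fitted log2 fold changes below are given with their standard error, and the ratios of a clone with a 95% Clopper-Pearson interval that covers counting error only.

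**Figure D4:**
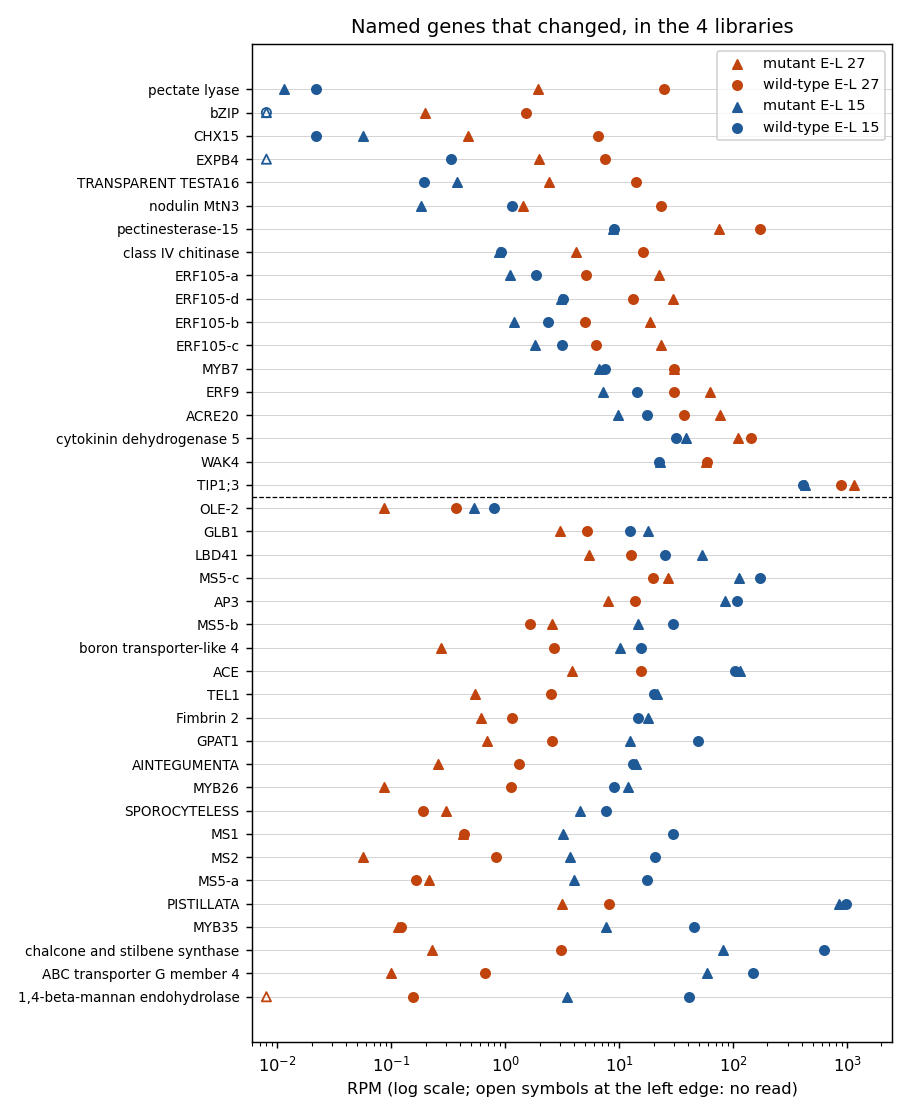
RPM of the 40 named genes that were called, on a log scale, in mutant (triangles) and wild-type (circles) at E-L 27 (red) and E-L 15 (blue), ordered by log2 fold change. Above the dashed line both red symbols lie to the right of the blue ones, and below it to the left, in every gene. The genes are plotted because they were called on these values. The stages do not overlap in 2339 of all 2348 genes called higher and in 2306 of all 2312 called lower.

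Both floral organ identity genes were called lower (10% over all genes tested), with a median log2 fold change of -5.31. PISTILLATA (VIT_18s0001g01760), a class B factor that specifies petals and stamens, had 3.17 and 8.11 RPM in mutant and wild-type E-L 27, against 854 and 969 RPM in mutant and wild-type E-L 15. This was 269 times less in the mutant (interval 236 to 309) and 120 times less in the wild-type (111 to 129), with a log2 fold change of -7.44 ± 0.34 and an adjusted p of 0.00035 (edgeR). AP3 (VIT_18s0001g13460), the partner of PISTILLATA in class B, had 7.95 and 13.8 RPM in mutant and wild-type E-L 27, against 84.4 and 107 RPM in mutant and wild-type E-L 15 (log2 fold change -3.17 ± 0.13, adjusted p = 0.00028, edgeR). Both genes were lower in every E-L 27 library than in either E-L 15 library, as were 2306 of the 2312 genes called lower. At E-L 38 PISTILLATA was at 1.03 RPM in the mutant and 0.0405 RPM in the wild-type, and AP3 at 0.0846 RPM in the mutant and without a read in the wild-type. The calls of both genes held under every setting tried.

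The 3 genes of organ growth and the 1 gene of surface lipids were called lower as well (10% over all genes tested). AINTEGUMENTA (VIT_09s0002g01370), an AP2 factor that keeps cells of young organs dividing in Arabidopsis, had 0.256 and 1.33 RPM in mutant and wild-type E-L 27, against 13.97 and 13.2 RPM in mutant and wild-type E-L 15. The E-L 15 values of the clones were close to each other, and the level was 54.6 times less in the mutant (interval 34.4 to 92.4) and 9.96 times less in the wild-type (8.25 to 12.1). With 1 library per clone and stage, such differences between the clones were not tested here or below. TEL1 (VIT_14s0219g00270), an RNA-binding protein of the shoot apex, had 0.540 and 2.53 RPM in mutant and wild-type E-L 27, against 21.6 and 20.3 RPM in mutant and wild-type E-L 15. ACE (VIT_09s0002g02210), annotated as Adhesion of calyx edges and needed in Arabidopsis to keep floral organs from fusing, had 3.88 and 15.5 RPM in mutant and wild-type E-L 27, against 116 and 103.4 RPM in mutant and wild-type E-L 15. For these 3 genes the log2 fold changes were -4.30 ± 0.59, -3.98 ± 0.56 and -3.74 ± 0.53. Their adjusted p lay between 0.0051 and 0.0058 (edgeR).

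GPAT1 (VIT_12s0142g00040), a glycerol-3-phosphate acyltransferase of lipid synthesis that was grouped with the anther genes, fell by nearly the same factor in both clones. It had 0.697 and 2.58 RPM in mutant and wild-type E-L 27, against 12.5 and 49.6 RPM in mutant and wild-type E-L 15, which was 17.9 times less in the mutant (interval 13.5 to 24.4) and 19.2 times less in the wild-type (16.8 to 22.0). LBD41 (VIT_14s0006g02950), a factor of the lateral organ boundaries family, had 5.45 and 12.6 RPM in mutant and wild-type E-L 27, against 53.1 and 25.4 RPM in mutant and wild-type E-L 15 (adjusted p = 0.034, edgeR). It was the 1 gene of the 22 that were lower whose level at E-L 38, 123 RPM in the mutant and 37.4 RPM in the wild-type, was above E-L 15 in both clones. When 1 library was left out, AINTEGUMENTA, TEL1, ACE, GPAT1 and LBD41 lost the call without an E-L 15 library, with adjusted p of 0.0548 to 0.118 (edgeR), while their direction stayed. LBD41 also lost it with a minimum of 1 RPM, with DESeq2, with all 6 libraries and with a test against the fold itself (adjusted p = 0.0509 to 0.196).

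Of the 14 genes of anther, tapetum and pollen that the study had picked in these libraries, 12 were called lower at E-L 27 (10% over all genes tested), 1 higher (10.2%) and 1 was not called, with a median log2 fold change of -4.51. The grouping was made here, and the paper links further genes to pollen or anthers through other plants. Of these, TIP1;3, CHX15, the class IV chitinase, the pectate lyase, MtN3, WAK4 and the pectinesterase on chromosome 15 were called higher. They are described in other groups below, and the calmodulin-binding protein, also linked to pollen, was not called. The count of 12 therefore does not cover all genes with such a link. The list of tapetum and pollen wall genes was matched by name. It held MALE STERILITY 1, MALE STERILITY 2 and the 3 copies annotated as MALE STERILITY 5, without MYB35 and the ABC transporter. All 5 members were called lower, with a median of -4.72 against -0.0013 over all genes tested. The summed level of the list was 29.99 and 22.8 RPM in mutant and wild-type E-L 27, against 137 and 270 RPM in mutant and wild-type E-L 15. Of the E-L 15 sums, 112 and 172 RPM came from the copy VIT_15s0107g00550 alone. Each member was lower in the mutant flower than in the wild-type flower. MALE STERILITY 1 (VIT_01s0011g06390), a PHD-finger factor of the tapetum, had 0.427 and 0.432 RPM in mutant and wild-type E-L 27, against 3.18 and 29.9 RPM in mutant and wild-type E-L 15. MALE STERILITY 2 (VIT_08s0007g07100), a fatty acyl reductase of the pollen wall, had 0.0569 and 0.831 RPM in mutant and wild-type E-L 27, against 3.67 and 20.5 RPM in mutant and wild-type E-L 15. MYB35 (VIT_17s0000g05400), a regulator of the tapetum, had 8 and 11 reads (0.114 and 0.122 RPM) in mutant and wild-type E-L 27, against 671 and 4175 reads (7.63 and 45.1 RPM) in mutant and wild-type E-L 15. It had a log2 fold change of -7.71 ± 0.50 (adjusted p = 0.00074, edgeR). In these 3 genes the E-L 27 values lay under 1 RPM in both clones. The E-L 15 values did not overlap with them, as in 2306 of the 2312 genes called lower.

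The 3 copies annotated as MALE STERILITY 5, a gene of pollen meiosis in Arabidopsis, fell to different depths. The copy VIT_07s0005g05680 had 15 reads in each E-L 27 library (0.213 RPM in the mutant and 0.166 RPM in the wild-type), against 4.05 and 17.55 RPM in mutant and wild-type E-L 15. VIT_07s0005g05720 had 2.56 and 1.64 RPM in mutant and wild-type E-L 27, against 14.51 and 29.3 RPM in mutant and wild-type E-L 15. VIT_15s0107g00550 kept 26.7 and 19.7 RPM in mutant and wild-type E-L 27, against 112 and 172 RPM in mutant and wild-type E-L 15, which was 4.18 times less in the mutant (interval 3.98 to 4.39) and 8.73 times less in the wild-type (8.31 to 9.17). All 3 fell further in the wild-type, whose flowers had the higher level. SPOROCYTELESS (VIT_19s0014g03940), which starts the formation of spore mother cells in Arabidopsis, had 0.299 and 0.188 RPM in mutant and wild-type E-L 27, against 4.55 and 7.70 RPM in mutant and wild-type E-L 15. MYB26 (VIT_09s0002g01670), known from Arabidopsis for anther opening, had 6 and 102 reads in mutant and wild-type E-L 27, against 1040 and 837 reads in mutant and wild-type E-L 15.

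An ABC transporter and a polyketide synthase of this group fell by a factor of at least 204 in both clones. The ABC transporter G member 4 (VIT_19s0015g00960) had 0.0995 and 0.665 RPM in mutant and wild-type E-L 27, against 59.3 and 150 RPM in mutant and wild-type E-L 15, and ranked 35 of the 846 genes that were lower alike with at least 10 RPM in both flower libraries. It had a log2 fold change of -8.14 ± 0.25 (adjusted p = 0.00014, edgeR). The gene annotated as chalcone and stilbene synthase (VIT_15s0021g02170) had 0.227 and 3.09 RPM in mutant and wild-type E-L 27, against 81.4 and 631 RPM in mutant and wild-type E-L 15. The flowers of the clones differed, but the ratio of the stages was of the same order, at 358 times less in the mutant (interval 220 to 627) and 204 times less in the wild-type (182 to 231). Fimbrin 2 (VIT_12s0059g00560), which bundles actin filaments, had 0.611 and 1.14 RPM in mutant and wild-type E-L 27, against 17.8 and 14.6 RPM in mutant and wild-type E-L 15. The gene of the group that was called higher was a bZIP transcription factor (VIT_18s0001g03010), with 14 and 136 reads in mutant and wild-type E-L 27 and none in either E-L 15 library. With the E-L 15 counts set to 3 reads it was 5.84-fold higher in the mutant and 46.5-fold higher in the wild-type. These values leave out the counting error of the E-L 27 reads. Without an E-L 15 library, MALE STERILITY 2, MYB26, bZIP and the chalcone and stilbene synthase lost the call, with adjusted p of 0.0507 to 0.172 (edgeR). With all 6 libraries in the fit or with a test against the fold itself, MALE STERILITY 1, MYB26 and 2 copies of MALE STERILITY 5 lost it, with adjusted p of 0.05 to 0.115.

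Of the 2 ovule genes 1 was called higher (10.2% over all genes tested), and in the wild-type both were higher by more than their counting intervals. TRANSPARENT TESTA16 (VIT_01s0011g01560), a MADS-box factor of the inner seed coat in Arabidopsis, had 2.43 and 14.2 RPM in mutant and wild-type E-L 27, against 0.375 and 0.194 RPM in mutant and wild-type E-L 15. It was higher by 6.48 times in the mutant (interval 4.45 to 9.72) and by 72.9 times in the wild-type (45.9 to 123), and was called with a log2 fold change of 4.41 ± 0.87 (adjusted p = 0.015, edgeR). Without either E-L 15 library the adjusted p was 0.0836 or 0.109. SEEDSTICK (VIT_18s0041g01880), which gives ovules their identity, had 10.7 and 67.4 RPM in mutant and wild-type E-L 27, against 9.82 and 9.45 RPM in mutant and wild-type E-L 15. Its ratio was 1.09 in the mutant (interval 0.989 to 1.20) and 7.13 in the wild-type (6.64 to 7.66), and it was not called (adjusted p = 0.13, edgeR). At E-L 38 TRANSPARENT TESTA16 was at 0.0705 RPM in the mutant and 0.0709 RPM in the wild-type, while SEEDSTICK was at 26.7 and 33.2 RPM.

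Of the 6 tested cell wall genes that the study had picked in these libraries, 4 were called higher (10.2% over all genes tested), 1 lower (10%) and 1 was not called, and the median log2 fold change was 2.52. In the list of pectin-modifying enzymes 2 of 3 were called higher (median 3.67). The pectinesterase VIT_15s0048g00510, which removes methyl groups from wall pectin, had 74.9 and 171 RPM in mutant and wild-type E-L 27, against 8.78 and 9.05 RPM in mutant and wild-type E-L 15. This was 8.53 times more in the mutant (interval 7.90 to 9.21) and 18.8 times more in the wild-type (17.57 to 20.2), with a log2 fold change of 3.67 ± 0.29 (adjusted p = 0.0011, edgeR). It ranked 55 of 776 among the genes that were higher alike with at least 10 RPM in both E-L 27 libraries, the highest rank of a named gene. WAK4 (VIT_01s0026g01420), a receptor kinase bound to wall pectin, had 57.2 and 58.8 RPM in mutant and wild-type E-L 27, against 22.8 and 22.2 RPM in mutant and wild-type E-L 15. Its levels in the clones differed by less than 2 RPM at each stage, with a log2 fold change of 1.37 ± 0.09 (adjusted p = 0.00068, edgeR). The calls of both genes held under every setting tried.

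The pectate lyase, EXPB4 and the endohydrolase rested on few reads at one stage. The pectate lyase VIT_01s0026g01680, which cuts pectin, had 135 and 2218 reads in mutant and wild-type E-L 27, against 1 and 2 reads in mutant and wild-type E-L 15. The ratio was 169 in the mutant (interval 29.8 to 6721) and 1137 in the wild-type (314 to 9395). Its levels at E-L 27 were 1.92 RPM in the mutant and 24.6 RPM in the wild-type, and no read was counted in either clone at E-L 38. The beta-expansin EXPB4 (VIT_15s0021g02700), a protein of wall loosening, had 138 and 672 reads in mutant and wild-type E-L 27, against 0 and 31 reads in mutant and wild-type E-L 15. It was at least 57.6-fold higher in the mutant and 22.2 times higher in the wild-type (interval 15.5 to 33.0). At E-L 38 it reached 1396 RPM in the mutant and 1103 RPM in the wild-type, against 1.962 and 7.44 RPM at E-L 27, and the part of reads from the ripe libraries in the E-L 27 counts was not tested. The 1,4-beta-mannan endohydrolase (VIT_18s0089g00140), which cuts mannans of the wall, had 0 and 14 reads in mutant and wild-type E-L 27, against 309 and 3771 reads in mutant and wild-type E-L 15. In the mutant it was at least 82.3-fold lower, and 263 times lower in the wild-type (interval 156 to 481). Pectate lyase, EXPB4 and the endohydrolase lost the call without an E-L 15 library, with adjusted p of 0.0572 to 0.0998 (edgeR), and the endohydrolase also with all 6 libraries (0.0552).

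All 6 tested genes of hormone synthesis and response were called higher, against 10.2% of all genes tested, and the study had picked them in these same libraries. These 6 had a median log2 fold change of 2.42. GA 20-oxidase 2, also of this group, had reads in wild-type E-L 27 only and was not tested. Cytokinin dehydrogenase 5 (VIT_18s0001g13200), an enzyme that degrades cytokinins, had 111 and 144 RPM in mutant and wild-type E-L 27, against 38.7 and 31.7 RPM in mutant and wild-type E-L 15. It was higher by 2.87 times in the mutant (interval 2.75 to 2.99) and by 4.54 times in the wild-type (4.36 to 4.72), and its call held under every setting tried (log2 fold change 1.85 ± 0.17, adjusted p = 0.0016, edgeR). The other 5 tested genes make up the list of ethylene genes (median 2.51). They are ethylene-responsive factors, and each had the higher level in the mutant at E-L 27. ERF105 on chromosome 16 is present in 4 neighbouring copies, of which VIT_16s0013g01120 had 29.5 and 13.2 RPM in mutant and wild-type E-L 27, against 3.08 and 3.23 RPM in mutant and wild-type E-L 15. ERF9 (VIT_12s0028g03270) had 62.5 and 30.5 RPM in mutant and wild-type E-L 27, against 7.26 and 14.2 RPM in mutant and wild-type E-L 15. The 3 other copies of ERF105 had 18.6 to 23.3 RPM in mutant E-L 27 and 5.02 to 6.29 RPM in wild-type E-L 27. At E-L 15 they had 1.10 to 1.81 RPM in the mutant and 1.85 to 3.12 RPM in the wild-type. The rise of these 3 copies was 12.9 to 20.1 times in the mutant, with 2.02 to 2.79 times for the wild-type. ERF9 rose 8.61 and 2.14 times, and VIT_16s0013g01120 rose 9.57 and 4.08 times, in mutant and wild-type. These 5 factors, with ACRE20, lost the call without an E-L 15 library (adjusted p = 0.0512 to 0.171, edgeR). Of the 5 factors called higher, 3 were left under other scalings, at equal depth and with a minimum of 1 RPM, 2 with DESeq2, and 1, the copy VIT_16s0013g01120, with all 6 libraries or against the fold itself. ACRE20 also lost the call with DESeq2, with all 6 libraries and against the fold (adjusted p = 0.0564 to 0.167).

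Signalling and other regulators made up 7 tested genes, which the study had picked in these same libraries. Of these, 2 were called higher (10.2% over all genes tested) and 5 were not called. The 5 were FERONIA, ARK3, the calmodulin-binding protein, H1flk and DTA2. MYB7 (VIT_04s0008g01800) had 30.2 and 30.1 RPM in mutant and wild-type E-L 27, against 6.64 and 7.44 RPM in mutant and wild-type E-L 15. The ratio was 4.55 in the mutant (interval 4.15 to 5.0) and 4.04 in the wild-type (3.71 to 4.40), with a log2 fold change of 2.10 ± 0.12 (adjusted p = 0.00057, edgeR). The clones were nearly equal at both stages. At E-L 38 it had no read in the mutant and 2.70 RPM in the wild-type, and with all 6 libraries in the fit its adjusted p was 0.294. ACRE20 (VIT_12s0134g00240), annotated as a rapidly elicited protein of the defence response, had 77.1 and 36.7 RPM in mutant and wild-type E-L 27, against 9.69 and 17.7 RPM in mutant and wild-type E-L 15 (adjusted p = 0.026, edgeR). The change was 7.95 times in the mutant, with 2.08 times for the wild-type, so that the clones stood in opposite order at the 2 stages.

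Of 5 tested transport genes, 3 were called higher (10.2% over all genes tested), 1 lower (10%) and 1 was not called. The study had picked them in these same libraries, and their median log2 fold change was 1.28. TIP1;3 (VIT_06s0061g00730), a water channel of the tonoplast, had 1138 and 888 RPM in mutant and wild-type E-L 27, against 423 and 406 RPM in mutant and wild-type E-L 15. It gained 598 RPM on average and was higher by 2.69 times in the mutant (interval 2.65 to 2.72) and by 2.19 times in the wild-type (2.16 to 2.21). Its log2 fold change was 1.28 ± 0.11 (adjusted p = 0.0015, edgeR), and a test against the fold itself gave 0.0651. The other aquaporin, beta-TIP (VIT_16s0039g00220), had 7 and 15 reads in mutant and wild-type E-L 27, against 23 and 40 reads in mutant and wild-type E-L 15, and was not called. The nodulin MtN3 (VIT_17s0000g08110), of the SWEET family of sugar exporters, had 1.42 and 23.1 RPM in mutant and wild-type E-L 27, against 0.182 and 1.14 RPM in mutant and wild-type E-L 15. The cation/hydrogen exchanger CHX15 (VIT_10s0003g03030) had 33 and 588 reads in mutant and wild-type E-L 27, against 5 and 2 reads in mutant and wild-type E-L 15. The boron transporter-like protein 4 (VIT_04s0008g04980) was the 1 transport gene called lower, with 0.270 and 2.69 RPM in mutant and wild-type E-L 27, against 10.1 and 15.5 RPM in mutant and wild-type E-L 15.

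Of the 3 genes of defence and stress 1 was tested. The class IV chitinase (VIT_05s0094g00330), which degrades chitin, had 4.19 and 16.2 RPM in mutant and wild-type E-L 27, against 0.875 and 0.918 RPM in mutant and wild-type E-L 15, and was called higher (log2 fold change 3.23 ± 0.49, adjusted p = 0.0070, edgeR). At E-L 38 it reached 712 RPM in the mutant and 970 RPM in the wild-type, and the part of reads from the ripe libraries was not tested here either. MtN3, CHX15, the boron transporter and the chitinase lost the call without an E-L 15 library, MtN3 also without wild-type E-L 27, with adjusted p of 0.0932 to 0.276 (edgeR). With all 6 libraries CHX15 lost it (0.0692), and without a clone term MtN3 did (0.0673).

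Most genes of the maturing seed had few reads at either stage. Of 8 such genes 5 had too few for the test, with at most 16 reads in any of the 4 libraries. Globulin-1 (GLB1, VIT_07s0151g00640) had 3.0 and 5.25 RPM in mutant and wild-type E-L 27, against 17.9 and 12.4 RPM in mutant and wild-type E-L 15 (log2 fold change -1.89 ± 0.34, adjusted p = 0.011, edgeR). The oleosin OLE-2 (VIT_17s0000g09000), a coat protein of oil bodies, had 6 and 33 reads in mutant and wild-type E-L 27, against 47 and 73 reads in mutant and wild-type E-L 15 (adjusted p = 0.046, edgeR). Seed maturation protein PM31 (VIT_18s0001g01570) was not called. Both GLB1 and OLE-2 were called lower (10% over all genes tested). GLB1 lost the call without mutant E-L 15 and OLE-2 without any of 3 libraries, with adjusted p of 0.0608 to 0.393. Both also lost it with all 6 libraries and against the fold itself, and OLE-2 moreover with other scalings, with DESeq2 and without a clone term (adjusted p = 0.0509 to 0.487).

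The reference genes for real-time PCR stayed close. SAND (VIT_06s0004g02820) had 73.7 and 72.5 RPM in mutant and wild-type E-L 27, against 68.3 and 62.8 RPM in mutant and wild-type E-L 15, with a log2 fold change of 0.16 ± 0.08 (adjusted p = 0.16, edgeR). GAPDH (VIT_17s0000g10430) had 2519 and 2822 RPM in mutant and wild-type E-L 27, against 2010 and 2168 RPM in mutant and wild-type E-L 15. Its log2 fold change of 0.35 ± 0.09 had an adjusted p of 0.033 (edgeR) and stayed under the fold required for a call.

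At E-L 38 most of the genes that were lower alike were still below their E-L 15 level. Of these 2039 genes, 1763 (86.5%) were below their E-L 15 level in both clones at E-L 38 too, and 158 (7.75%) were above it. Against their E-L 27 level, 612 (30%) were above it in both clones and 1084 (53.2%) below it. The genes were chosen for an E-L 15 level above E-L 27, which favours the 86.5%, and no share over all genes tested is given. Of the 1952 genes that were higher alike, 744 (38.1%) were below their E-L 15 level in both clones at E-L 38 and 448 (23.0%) above their E-L 27 level. Among the 18 named genes called higher, 10 were below E-L 15 in both clones, among them TIP1;3, WAK4, cytokinin dehydrogenase 5 and the pectinesterase on chromosome 15. EXPB4, the class IV chitinase and ERF105 VIT_16s0013g01120 were the 3 above E-L 27 in both. Of the 22 named genes called lower, 18 were below E-L 15 in both clones. These are levels in single libraries, given with no test.

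**Figure D5:**
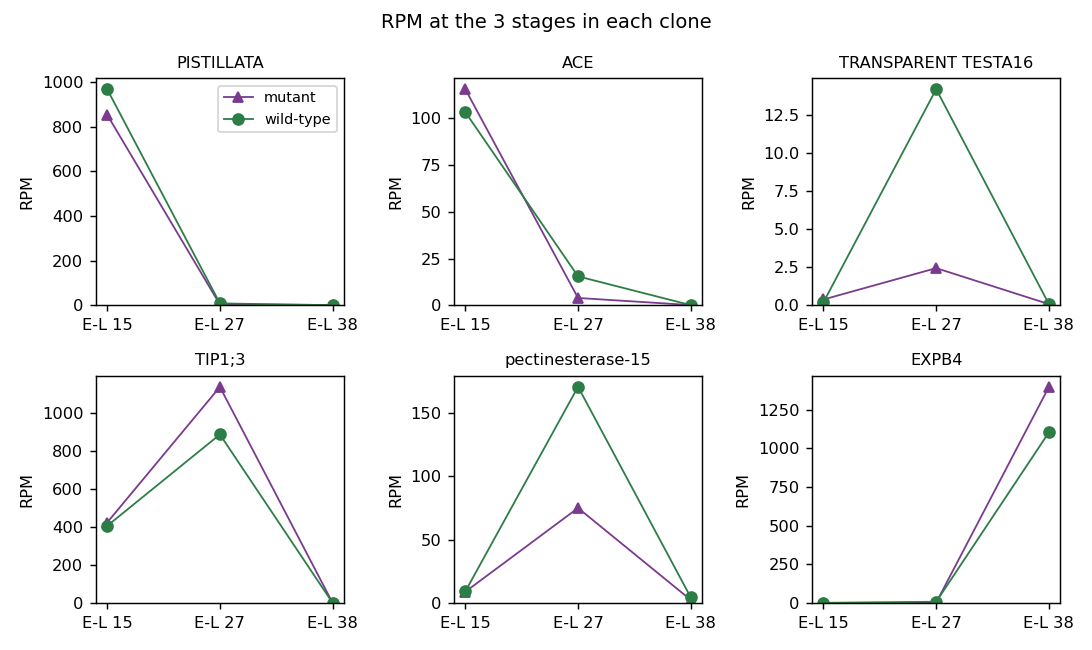
RPM of 6 genes at the 3 stages in the mutant (triangles) and the wild-type (circles), each point a single library. PISTILLATA and ACE fall after E-L 15, TRANSPARENT TESTA16, TIP1;3 and the pectinesterase on chromosome 15 are highest at E-L 27, and EXPB4 is highest at E-L 38 in both clones.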

How the data were processed

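Poly(A) mRNA of 6 libraries was sequenced as 100-bp paired ends on an Illumina HiSeq sequencer. The deposited counts were obtained by the authors from BWA alignments to the transcripts of the 12x v1 annotation of genome PN40024. Reads at a single position, extracted with SAMtools, were added up for every gene model. The deposited RPM values are these counts scaled by the authors to the library total, without division by gene length, since coverage was biased to the 3′ end of transcripts. The versions of BWA and SAMtools are not given in the sources used here.

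Counts of the 4 libraries of E-L 27 and E-L 15 (70331451 to 92582632 reads) were tested with edgeR 4.0.16 in R 4.3.3 (filterByExpr by stage, TMM, estimateDisp, glmQLFit, glmQLFTest, terms for clone and stage). The study compared the stages within each clone with DESeq. Clone ratios were computed from RPM, with counts of 3 or fewer set to 3. Where a count was 1 to 3, the printed ratio uses the count itself and its interval. The standard error of a log2 fold change is its size divided by the square root of F. The steps were tested on simulated data. Alternatives were other scalings, filters and tools (DESeq2 1.42.0), all 6 libraries, no clone term, equal depth and leaving out each library. A test against the fold itself (glmTreat) was added after seeing the data. Python 3.11.15 with numpy 2.4.6, scipy 1.17.1, pandas 2.3.3 and matplotlib 3.10.9 was used.

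Genes were named when the study annotated their identifier (64 genes), from the largest changes alike in both clones, the largest differences in mean RPM, the members of the lists and the genes tested. At most 2 genes without a name per direction were added, outside this rule, after seeing their values. The members and lists were chosen with earlier results of these data known. Of 28 lists of gene families 14 had a member among the annotated genes. No GO enrichment was analysed here.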

Additional observations from a re-analysis of the deposited data

Results flagged for a closer look

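In all, 3 named genes moved in opposite directions in the 2 clones, each by more than its counting interval, with 1 library per clone and stage, and the difference was not tested. The pectinesterase on chromosome 11 (VIT_11s0016g03020) had 23.7 RPM in mutant E-L 27 against 32 RPM in mutant E-L 15, a ratio of 0.741 (95% Clopper-Pearson interval 0.697 to 0.787). In the wild-type it had 64.9 RPM at E-L 27 against 35.5 RPM at E-L 15, a ratio of 1.83 (1.75 to 1.91). The calmodulin-binding protein (VIT_00s1404g00010) had 14.6 RPM in mutant E-L 27 against 18.1 RPM in mutant E-L 15 (ratio 0.811, interval 0.749 to 0.878), and 22.6 RPM in wild-type E-L 27 against 17.5 RPM in wild-type E-L 15 (ratio 1.30, interval 1.21 to 1.39). The seed maturation protein PM31 (VIT_18s0001g01570) had 5 reads in mutant E-L 27 against 25 reads in mutant E-L 15 (ratio 0.25, interval 0.0748 to 0.666), and 48 reads in wild-type E-L 27 against 20 reads in wild-type E-L 15 (ratio 2.46, interval 1.43 to 4.38). None of the 3 was called for the stage.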

How the results depend on the processing

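The counts of 2348 genes higher and 2312 lower stayed within 1.5 times under other scalings, filters on low counts, glmQLFit with legacy=FALSE, DESeq2, no clone term and equal depth. With all 6 libraries in the fit 1558 genes were called higher and 1598 lower, and 3135 of the 3156 were also called with 4 libraries. The test against a log2 fold change of 1, added after seeing the data, called 1108 higher and 1301 lower (54.0% lower against 49.6%), of which 1107 and 1301 were alike. Without a threshold on the fold 4807 were higher and 4913 lower. Above a log2 fold change of 2 these were 929 and 1209. With a ratio above 4 in each clone 678 were higher alike and 984 lower alike. Leaving out 1 library each, 1424 to 2446 genes were called higher and 1501 to 2409 lower, with 48.0% to 51.3% lower. Such fits had no clone term, and likeness between the clones could not be computed. The correlation between the clones was 0.86 without a filter and 0.93 with at least 1 RPM in both libraries of a stage. The same genes were not always called: 60.3% to 88.4% of the main calls were made without 1 library, and no gene was called in the opposite direction. Of the 40 named calls 10 held under every setting. Conversely, 3 named genes that were tested but not called gained a call under settings that left out no library. These were FERONIA with legacy=FALSE, DESeq2, no clone term and equal depth, and DTA2 and beta-TIP with legacy=FALSE only. The genes whose fitted direction turned were not called: PM31 (-0.01) reached 0.27 with legacy=FALSE, 0.30 without a clone term and -1.76 to 1.07 without 1 library. Without 1 library, XIK (0.51) ranged from -7.32 to 7.85, the calmodulin-binding protein (0.04) from -0.24 to 0.34, the pectinesterase on chromosome 11 (0.23) from -0.48 to 0.93 and H1flk (0.62) from -0.0696 to 1.28. The cause of these changes was not tested. The clone term pairs the stages within a clone, and the fit without it gave counts within 1.5 times. No paired analysis by replicate number was possible because every library has the number 1. The stage-by-clone difference cannot be tested with 1 library per cell of the design, and permuting 2 against 2 libraries cannot reach 0.05.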
